A study of Mus musculus with 6 samples.

Results

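GATA factors are zinc finger proteins that bind DNA at GATA motifs and act together with a small set of partner proteins. The genes described here are 10: the factor genes Gata1, Gata2 and Gata3, the partner and complex genes Tal1, Lmo2, Ldb1, Zfpm1 and Gfi1b, and the erythroid and megakaryocyte regulator genes Klf1 and Nfe2. They were found by matching the Ensembl identifiers of a read-count table of 22271 genes to these symbols. All 10 were in the table, and all 10 passed the filter on low counts. In blood formation, TAL1, LMO2 and LDB1 join GATA proteins in a complex that sits at erythroid, megakaryocyte and mast cell genes. GATA2 is known from stem cells, early progenitors, basophils and mast cells, GATA1 from erythroid cells, megakaryocytes, eosinophils and mast cells, and GATA3 from T cells and innate lymphoid cells.

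RNA was sequenced from 2 populations of bone marrow progenitors of C57BL/6JRj mice, separated by sorting. They were CD27 high MODP and CD27 low MOP, with 3 libraries each. Every sample title carries the letters WT, and no treatment or allele is named. The series' title is about a progenitor of macrophages and osteoclasts that lies below one shared with dendritic cells. The age of the mice, the gates besides CD27 and whether libraries came from separate mice: not given in the sources used here. The p-values therefore measure only how much these libraries vary, which may be technical. Levels are CPM, that is counts per 1000000 counts with library sizes scaled by edgeR's TMM method. A gene is past the threshold when its Benjamini-Hochberg adjusted p in edgeR's quasi-likelihood test is under 0.05.

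Library totals ran from 10701425 to 15892640 counts. Cd27, the gene of the sorted surface protein, was measured at 35.3, 38.9 and 38.6 CPM in MODP libraries 1, 2 and 3 against 4.56, 3.52 and 3.64 CPM in the MOP libraries, a log2 fold change of -3.27 ± 0.12 (SE). The progenitor genes Kit, Flt3 and Cd34 were also lower in MOP, and the monocyte and macrophage lineage genes Csf1r, Ly6c2 and Cx3cr1 were higher, by the same test, though the Cx3cr1 call was lost without MODP replicate 3 and without MOP replicates 1 or 3 in turn (edgeR adjusted p 0.0515 to 0.0820). Replicate 2 stood apart in both groups. The summed CPM of 10 neutrophil genes was 16082 in MODP replicate 2 and 11395 in MOP replicate 2, against 2082 to 4853 in the other 4 libraries. The summed CPM of 10 stromal and endothelial genes was 2167 in MODP replicate 2 and at most 414 elsewhere. In MODP replicate 2 that sum was mostly Col1a1, a collagen gene, at 1724 CPM, with Sparc, a matrix protein gene, at 305 CPM, whereas Col3a1, Kdr and Lepr were at or below 0.470 CPM. Where leaving out both replicate 2 libraries changes the call of a gene named below, the value is given.

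Of the 10 genes, 6 rose from MODP to MOP, namely Gata2, Klf1, Gata1, Gfi1b, Tal1 and Nfe2. The 2 genes that fell were Lmo2 and Gata3, and Zfpm1 and Ldb1 did not pass the test. With the replicate number as a block in the fit, Gata2 was not past the threshold and Zfpm1 was, as higher in MOP. Over all 12850 genes tested, 31.2% were past the threshold, 16.3% as higher and 14.9% as lower in MOP. These are 2095 higher and 1913 lower genes, or 1692 and 2452 with upper-quartile scaling, under which no member changed its call. For 9 of the 10 genes, Zfpm1 being the exception, the libraries of MODP and MOP did not overlap, and the same held for 47.6% of all genes tested. Gata2, Klf1, Gata1 and Gfi1b were at least 2-fold higher in MOP and past the threshold, which 3.84% of all tested genes were. The median log2 fold change was 0.47 over the 10 genes and -0.01 over all tested genes.

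The 250 bases upstream of the start sites of Gata1, Gata2, Gfi1b and Klf1 are shown because these genes rose most and GATA proteins are known to act on several of them. The sequences are RefSeq's, from build GRCm38.p6, written 5′ to 3′ on the strand of the gene, with GATA motifs in capitals. Gata2 has 2 starts in RefSeq, and the counts per gene pool transcripts from both.
Gata1 (chrX:7967911-7968160, minus strand): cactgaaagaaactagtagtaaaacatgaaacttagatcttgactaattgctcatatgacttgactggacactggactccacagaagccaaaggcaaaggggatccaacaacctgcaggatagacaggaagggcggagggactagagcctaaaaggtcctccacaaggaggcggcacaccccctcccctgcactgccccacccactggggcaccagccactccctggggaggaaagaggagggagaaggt
Gata2 upstream start (chr6:88193641-88193890, plus strand): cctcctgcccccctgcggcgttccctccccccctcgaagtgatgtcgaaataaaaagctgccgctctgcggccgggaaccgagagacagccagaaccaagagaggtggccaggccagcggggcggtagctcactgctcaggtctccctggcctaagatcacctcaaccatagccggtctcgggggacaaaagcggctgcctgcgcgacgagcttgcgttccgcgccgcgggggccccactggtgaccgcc
Gata2 downstream start (chr6:88198414-88198663, plus strand): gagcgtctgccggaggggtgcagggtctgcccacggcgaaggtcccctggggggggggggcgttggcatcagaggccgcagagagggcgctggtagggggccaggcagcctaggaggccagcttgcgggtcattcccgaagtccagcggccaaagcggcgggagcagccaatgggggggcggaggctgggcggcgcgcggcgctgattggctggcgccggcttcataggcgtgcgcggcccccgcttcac
Gfi1b (chr2:28621983-28622232, minus strand): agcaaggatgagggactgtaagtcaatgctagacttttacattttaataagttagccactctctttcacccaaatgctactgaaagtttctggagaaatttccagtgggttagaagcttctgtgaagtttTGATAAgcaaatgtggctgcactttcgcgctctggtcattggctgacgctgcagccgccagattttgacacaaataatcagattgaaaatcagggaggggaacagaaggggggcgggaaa
Klf1 (chr8:84901732-84901981, plus strand): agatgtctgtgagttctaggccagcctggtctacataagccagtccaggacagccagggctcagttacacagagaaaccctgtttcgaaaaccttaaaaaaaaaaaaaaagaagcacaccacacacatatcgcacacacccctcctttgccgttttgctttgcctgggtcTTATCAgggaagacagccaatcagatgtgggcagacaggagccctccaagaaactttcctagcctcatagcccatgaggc

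The GATA motif was searched on both strands in 4 spellings, namely AGATAA and then AGATAG, as well as TGATAA and also TGATAG. RefSeq windows were found for 8 of the 10 members, 12 windows in all, and Lmo2 and Nfe2 had no entry. A GATA motif lay in 4 of these windows, those of Gfi1b and Klf1, 1 of Tal1 and 1 of Ldb1, while 26.5% of all 32851 RefSeq windows of this length held one. In Gfi1b it covered bases 120 to 115 upstream of the start, and in Klf1, on the opposite strand, bases 80 to 75. The windows of Gata1, Gata2, Gata3 and Zfpm1 held none, which says only that these letters are not in these 250 bases. The TAL1 and GATA1 complex is known to bind a composite of an E-box part and a GATA core, searched as CTG, then 8 or 9 bases of any kind, then GATA. It was found in Gfi1b, Klf1 and 1 window of Tal1, overlapping the GATA motif in Gfi1b and Klf1, and in 4.01% of all windows. A CACCC motif, the kind of site KLF1 binds, was searched as CCACACCC, CCGCACCC and CCCCACCC on both strands. It was in windows of Gata1, Gata3 and Ldb1 and in 13.1% of all windows. These matches describe letters, not binding.

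Gata2 (ENSMUSG00000015053), the GATA gene of early progenitors and basophils, had the largest log2 fold change of the members. MODP libraries 1, 2 and 3 held 57.3, 89.4 and 54.2 CPM, and the MOP libraries held 449, 268 and 370.4 CPM. Every MOP library lay above every MODP library, and replicate 2 was the highest of MODP and the lowest of MOP. The log2 fold change was 2.44 ± 0.30 (SE), or 5.42-fold, with an edgeR adjusted p of 0.00472. Within replicate numbers, MOP exceeded MODP by 7.83-, 3.00- and 6.84-fold. With the replicate number as a block the log2 fold change was 2.44 ± 0.43 and the call was lost (edgeR adjusted p = 0.0522), whereas without both replicate 2 libraries it was 2.88 ± 0.10 (edgeR adjusted p = 3.01e-05).

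Basophil and mast cell markers moved with Gata2. Summed over the 20 of 21 listed genes in the table, they reached 669, 1216 and 613 CPM in MODP libraries 1, 2 and 3 and 4671, 3499.9 and 5468 CPM in the MOP libraries. As for Gata2, replicate 2 was the highest MODP library and the lowest MOP library in this sum, of which Prss34, a basophil protease gene, made up 23.9% to 53.4%. Of the 15 tested markers 13 were higher in MOP and the other 2 did not pass, with a median log2 fold change of 2.39. That is 86.7% past the threshold, against 31.2% of all tested genes, and 9 were higher under the replicate block. Among the 13, Il4 had at most 6 counts in a MODP library and passed the filter on low counts through MOP only. In bulk RNA, more cells of a type and more RNA per cell cannot be told apart, and the part of basophils and mast cells in the Gata2 difference was not tested.

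Mcpt8, a basophil protease gene, ran from 83.2 to 229 CPM in MODP and from 723 to 1141 CPM in MOP, and Prss34 from 146 to 503 and from 1789.6 to 2919 CPM. Both were past the threshold (edgeR adjusted p = 0.0181 and 0.0247), but the replicate block took both calls away (edgeR adjusted p = 0.0832 and 0.0928), as did leaving out replicate 1 or replicate 3 of either group and, for Prss34, also MOP replicate 2 (edgeR adjusted p 0.0523 to 0.0658 for Mcpt8 and 0.0590 to 0.0799 for Prss34). Cpa3, a carboxypeptidase gene of mast cells and basophils, rose by log2 1.87 ± 0.25 (SE). Il1rl1, the IL-33 receptor gene, Il3ra, an IL-3 receptor chain gene, and Csf1, the M-CSF gene, rose by 1.76, 0.70 and 3.10 on the log2 scale. The mast cell protease genes Tpsb2, Cma1, Mcpt1, Mcpt2 and Mcpt4 were at or below 0.282 CPM in every library and were not tested.

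**Figure D1:**
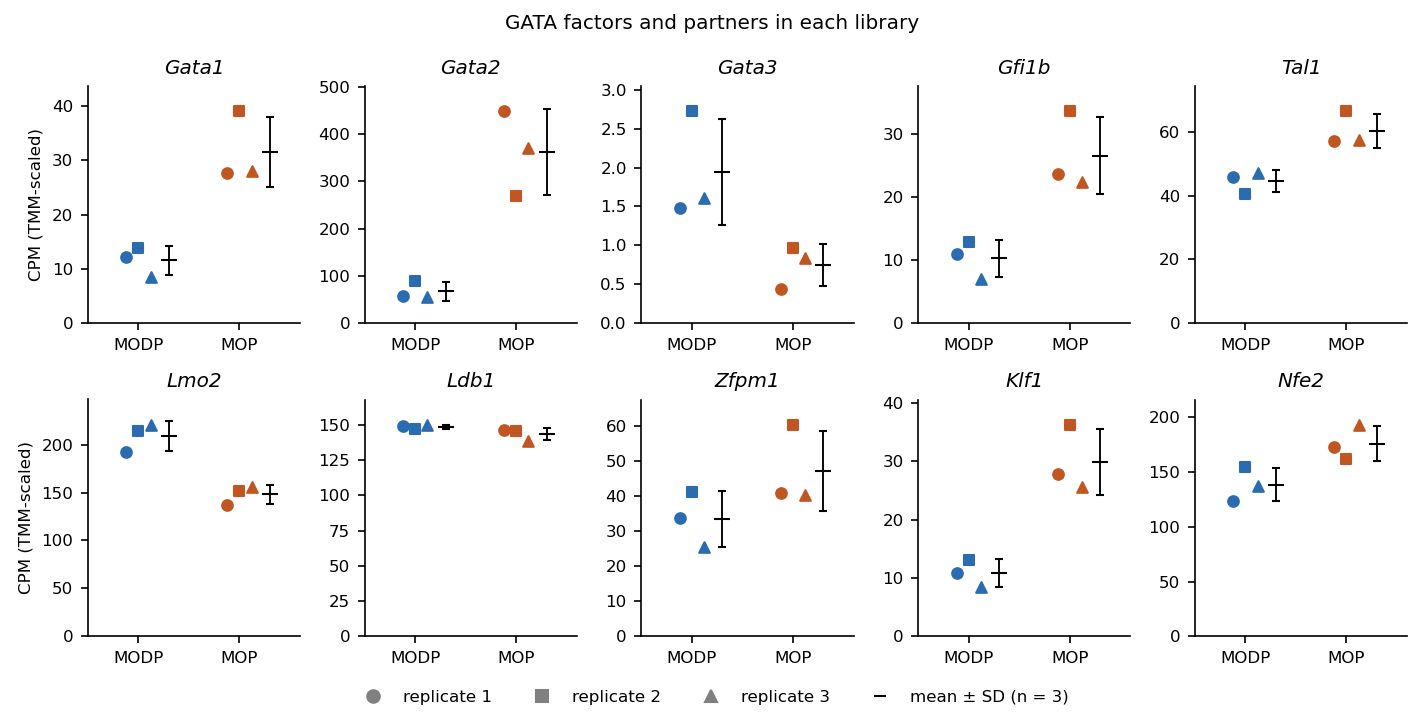
CPM of each member (y axis, TMM-scaled, from 0) in the 3 MODP and 3 MOP libraries, with the replicate number as the marker shape and the mean ± SD (n = 3) beside the points. Gata2 lies at 54.2 to 89.4 CPM in the MODP libraries and 268 to 449 CPM in the MOP libraries, whereas Ldb1 stays between 139 and 150.03 CPM in all 6 libraries.

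Gata1 (ENSMUSG00000031162), the GATA gene of erythroid cells, megakaryocytes, mast cells and eosinophils, rose as well. Its level was 12.2, 13.9 and 8.56 CPM over the MODP libraries and 27.7, 39.1 and 28.1 CPM over the MOP libraries. The groups did not overlap, and replicate 2 was the highest library of each. The log2 fold change was 1.46 ± 0.21 (SE), with an edgeR adjusted p of 0.00275, and no alternative took the call away (adjusted p between 1.66e-10 and 0.0161 over 16).

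Klf1 (ENSMUSG00000054191), the gene of an erythroid Krüppel-like factor and a known target of GATA1, had 10.9, 13.1 and 8.49 CPM in the MODP libraries and 27.9, 36.3 and 25.6 CPM in the MOP libraries. Gfi1b (ENSMUSG00000026815), the gene of a zinc finger repressor of erythroid cells and megakaryocytes, had 10.9, 12.9 and 6.95 CPM and 23.7, 33.6 and 22.4 CPM. Like Gata1, both genes were lowest in MODP replicate 3, higher in MODP replicate 2 than in the other MODP libraries, and highest in MOP replicate 2. Their log2 fold changes were 1.47 ± 0.19 (SE) and 1.39 ± 0.26 (SE), with edgeR adjusted p of 0.00147 and 0.00861, and both calls stood in all 16 alternatives. The ratio of Gfi1b to Gata1, on CPM with 0.5 CPM added, stayed between 0.801 and 0.928 over the 6 libraries, and the groups overlapped in it.

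Zfpm1 (ENSMUSG00000049577) encodes FOG1, the zinc finger cofactor through which GATA1 acts at many of its sites. It was measured at 33.8, 41.2 and 25.4 CPM across MODP and 40.8, 60.4 and 40.2 CPM across MOP. MODP replicate 2 lay above MOP replicates 1 and 3, so the groups overlapped, while within each replicate number MOP was higher, by 1.21-, 1.46- and 1.58-fold. The log2 fold change of 0.50 ± 0.24 (SE) missed the threshold (edgeR adjusted p = 0.168). It was past the threshold with the replicate number as a block (log2 0.49 ± 0.09 SE, edgeR adjusted p = 0.00244), without both replicate 2 libraries (edgeR adjusted p = 0.0357) and with DESeq2 (adjusted p = 0.0468).

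**Figure D2:**
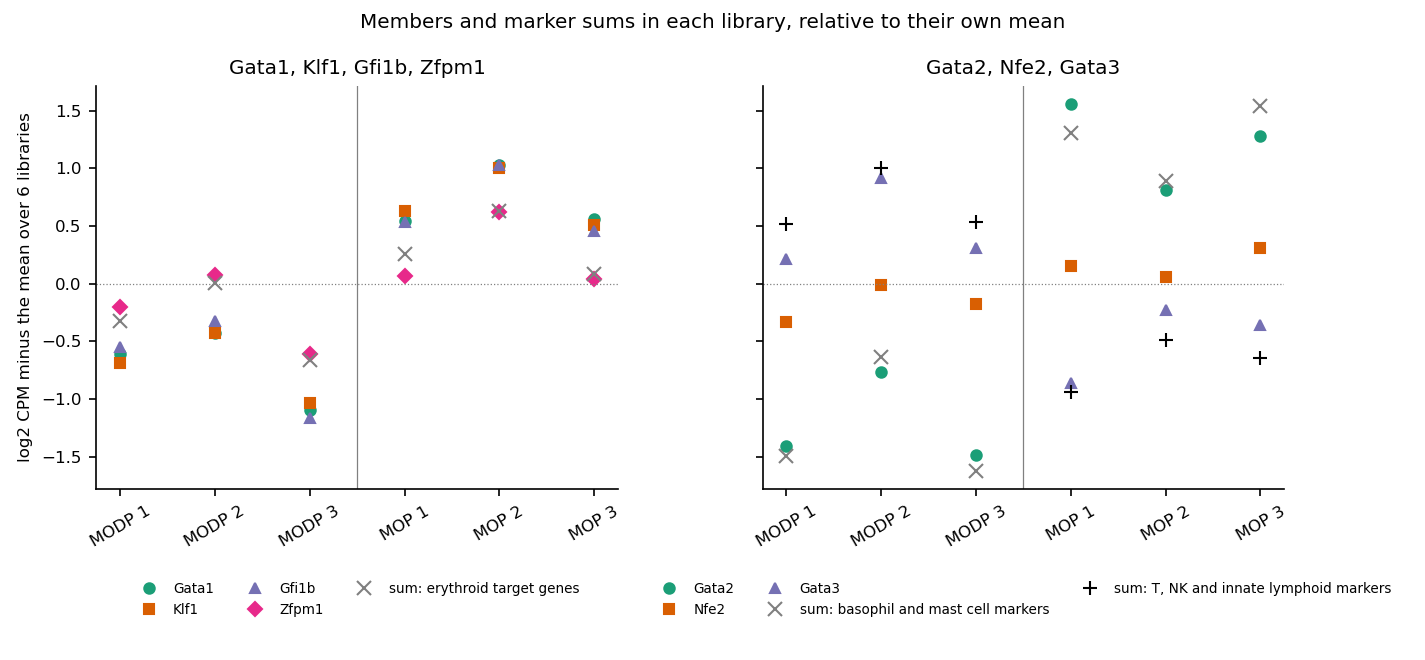
Log2 CPM of 7 members and of 3 marker sums (y axis, 0.5 CPM added for genes, minus the mean of the same gene or sum over the 6 libraries) in each library (x axis). MOP replicate 2 is the highest library for Gata1, Klf1, Gfi1b and Zfpm1 and the lowest of the MOP libraries for Gata2 and Nfe2.

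The order of the MOP libraries thus differed between Gata2 and Gata1. The log2 ratio of Gata2 to Gata1, on CPM with 0.5 CPM added, was 2.18, 2.64 and 2.59 over the MODP libraries and 3.99, 2.76 and 3.70 over the MOP libraries. All MOP ratios lay above all MODP ratios, with MOP replicate 2 close to the highest MODP ratio. The means differed by 1.01, and the exact two-sided permutation test over libraries gave p = 0.1, the smallest that 3 libraries against 3 allow. Without both replicate 2 libraries the difference was 1.46, and without MOP replicate 1 it was 0.76.

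Erythroid genes, many of them known targets of GATA1 and KLF1, were higher in MOP in part. Of 31 tested genes 14 were higher, 2 lower and 15 not past the threshold, with a median log2 fold change of 1.13. That is 51.6% past the threshold, against 31.2% of all tested genes. Cldn13, a surface protein gene of erythroid progenitors, had 7.63, 9.30 and 5.12 CPM in the MODP libraries and 20.7, 32.0 and 19.9 CPM in the MOP libraries. Ank1, the gene of the ankyrin of the red cell membrane skeleton, rose by log2 1.66 ± 0.26 (SE), and Epor, the erythropoietin receptor gene, by 1.26 ± 0.30 (SE). The Epor call was lost without MODP replicate 1 or MOP replicate 1 (edgeR adjusted p 0.0644 and 0.0562).

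The globin genes Hbb-bs and Hba-a1 overlapped between the groups and missed the threshold. Hbb-bs had 57.8, 201 and 28.8 CPM in the MODP libraries and 86.6, 132 and 68.8 CPM in the MOP libraries (edgeR adjusted p = 0.996), and Hba-a1 an edgeR adjusted p of 0.851. Within replicates 1 and 3 Hbb-bs and Hba-a1 were higher in MOP, and within replicate 2 they were lower. None of the 16 alternatives put Hbb-bs or Hba-a1 past the threshold. Both are uncertain, since 66.9% and 71.45% of the 31-mers of Hbb-bs and Hba-a1 occur in other genes. Alas2, the erythroid heme synthesis gene, was at log2 0.40 ± 0.54 (SE) and missed it too (edgeR adjusted p = 0.635). The genes of the list that were lower were Xpo7, a nuclear export gene, and Slc25a37, a mitochondrial iron carrier gene, at log2 -0.25 and -0.41. The Slc25a37 call was lost without MODP replicate 1 and without MOP replicates 1 or 3 in turn (edgeR adjusted p 0.0502 to 0.0600).

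Summed CPM of the erythroid list came to 1573, 1978 and 1239 over the MODP libraries and 2345, 3048 and 2076 over the MOP libraries. The lowest sum, in MODP replicate 3, and the highest, in MOP replicate 2, fell in the same libraries as for Gata1. The part of erythroid cells in the Gata1, Klf1 and Gfi1b differences was not tested. The count of higher erythroid genes was 5 without MODP replicate 1, 5 without MOP replicate 1, 9 without MOP replicate 2 and 7 without a filter on low counts. It was 19 under the replicate block, 18 with DESeq2 and 17 with limma-voom.

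Megakaryocyte genes were called about as often as genes in general. Of 20 tested genes 4 rose, 2 fell and 14 missed the threshold, so 30% were past it against 31.2% of all tested genes, and 4 fell under the replicate block. Itga2b, the integrin CD41 gene, had 41.8, 70.2 and 43.6 CPM in the MODP libraries and 200.2, 131 and 184 CPM in the MOP libraries, with replicate 2 the highest of MODP and the lowest of MOP, as for Gata2. Its call (log2 1.73 ± 0.28 SE, edgeR adjusted p = 0.0102) was lost with the block (edgeR adjusted p = 0.0845) and without MODP replicate 3 (edgeR adjusted p = 0.0502). P2ry1, an ADP receptor gene, and Itgb3, the gene of the integrin partner of CD41, rose by log2 1.69 and 0.89. Slc6a4, the serotonin transporter gene, was at most 0.282 CPM in the MODP libraries and 3.58 to 8.16 CPM in MOP. It is 1 of the 4 genes that rose. With 1 to 3 counts in the MODP libraries, it passed the filter on low counts through MOP only.

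Among the megakaryocyte genes, Mmrn1, a platelet granule gene, fell by 1.64 ± 0.44 (SE) on the log2 scale (edgeR adjusted p = 0.0231). The Mmrn1 call was lost without replicate 1 or 3 of MOP and without replicate 3 of MODP (edgeR adjusted p 0.0660 to 0.0813). Pf4, a platelet chemokine gene, lay at 4.68 to 13.1 CPM in the MODP libraries and 1.47 to 4.03 CPM in the MOP libraries and just missed the threshold (edgeR adjusted p = 0.0501), whereas it was past it with the block (edgeR adjusted p = 2.43e-04), without both replicate 2 libraries (edgeR adjusted p = 0.00239) and with DESeq2 (adjusted p = 0.00113). Ppbp, Tubb1 and Treml1, genes of maturing megakaryocytes and platelets, were at most 1.31 CPM in any library and were not tested. The summed CPM of the megakaryocyte list was 309, 620.2 and 268 over the MODP libraries and 622, 669 and 599.8 over the MOP libraries. The groups overlapped in it through MODP replicate 2 only. Plek, the largest gene of this sum by its mean over the 6 libraries, made up 22.6% to 36.0% of it. Thbs1, another gene of the list, was above Plek in replicate 2 of both groups. In MODP replicate 2 Thbs1 had 180 CPM against 143 CPM for Plek, and in MODP replicates 1 and 3 it had 36.0 and 17.1 CPM. Itga2b was above Plek in MOP replicates 1 and 3. The part of megakaryocytes in the differences of the members was not tested.

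Gata3 (ENSMUSG00000015619), the GATA gene of T cells, was the rarest member and fell. Its counts were 18, 29 and 23 in the MODP libraries and 6, 15 and 11 in the MOP libraries, or 1.48, 2.72 and 1.61 against 0.441, 0.959 and 0.833 CPM. The groups did not overlap. The log2 fold change was -1.35 ± 0.40 (SE), with an edgeR adjusted p of 0.0335. The call was lost in each of the 6 fits without a single library (edgeR adjusted p 0.0523 to 0.113), without both replicate 2 libraries (edgeR adjusted p = 0.0509) and with DESeq2 (adjusted p = 0.0645). In GENCODE M21 an antisense gene overlaps 3.90% of its exon bases and the same-strand gene 9230102O04Rik 1.94%.

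As a sum, T, NK and innate lymphoid markers moved with Gata3. Their summed CPM was 291, 408 and 295 over the MODP libraries and 106, 144 and 129.96 over the MOP libraries, and Nkg7, a cytotoxic granule gene, made up 58.1% to 81.2% of it. Of 21 tested markers 11 fell and 10 missed the threshold, with a median log2 fold change of -2.12. That is 52.4% past the threshold, against 31.2% of all tested genes, and 17 fell under the replicate block. Some of these markers passed the filter on low counts through MODP only. Cd3g and Ncr1, for example, had at most 4 and 8 counts in a MOP library. Such genes could be tested only if they were higher in MODP, so the counts and the median lean toward genes that fell. Nkg7 fell by 1.41 on the log2 scale, and Lck and Tcf7, the genes of a kinase and a transcription factor of T cells, fell by 2.70 and 2.16. Cd3e, the gene of a chain of the T cell receptor complex, lay at 1.81 to 5.26 CPM in the MODP libraries and 0.147 to 0.767 CPM in the MOP libraries (edgeR adjusted p = 0.0154), a call that was lost without MOP replicate 1 or MOP replicate 3 (edgeR adjusted p = 0.0503 and 0.0632). Il7r, the IL-7 receptor gene, overlapped between the groups, at 3.51 to 13.8 and 8.76 to 15.1 CPM (edgeR adjusted p = 0.568). Il7r and Rora, another gene of the list, went opposite to Gata3, at log2 0.44 and 0.52, and missed the threshold. Without both replicate 2 libraries Rora was past it (edgeR adjusted p = 0.0402). The part of lymphoid cells in the Gata3 difference was not tested.

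The genes of the TAL1 complex differed in direction. Tal1 (ENSMUSG00000028717), the gene of a basic helix-loop-helix factor, had 45.9, 40.7 and 47.2 CPM in the MODP libraries and 57.2, 66.5 and 57.5 CPM in the MOP libraries. Lmo2 (ENSMUSG00000032698), the gene of the LIM-only protein that bridges TAL1 and GATA proteins, had 192, 214 and 220.5 CPM and 137, 151 and 156 CPM. In neither gene did the groups overlap. Tal1 rose by log2 0.44 ± 0.09 (SE) and Lmo2 fell by 0.50 ± 0.07 (SE), with edgeR adjusted p of 0.00726 and 0.00192. The ratio of MOP to MODP for Lmo2 was 0.713, 0.705 and 0.709 within the replicate numbers. Both calls stood in all 16 alternatives.

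Ldb1 (ENSMUSG00000025223), the gene of the adaptor that holds the complex together and links distant sites, varied least, at 149, 147 and 150.03 CPM in the MODP libraries and 146, 146 and 139 CPM in the MOP libraries. It differed by log2 -0.05 ± 0.05 (SE) (edgeR adjusted p = 0.461), and none of the 16 alternatives put it past the threshold (adjusted p between 0.128 and 0.756). Every MOP value lay below every MODP value, by at most 1.08-fold within a replicate number. The gene Pprc1 overlaps 3.84% of its exon bases on the opposite strand.

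Nfe2 (ENSMUSG00000058794), the gene of the blood-specific subunit of the NF-E2 factor of megakaryocytes and erythroid cells, had 124, 154 and 137 CPM in the MODP libraries and 173, 162 and 193 CPM in the MOP libraries. Within replicate 2 MOP exceeded MODP by 1.05-fold, against 1.398- and 1.405-fold within replicates 1 and 3. Nfe2 rose by log2 0.35 ± 0.09 (SE) (edgeR adjusted p = 0.0252). The call was lost without replicate 1 or replicate 3 of either group (edgeR adjusted p 0.0782 to 0.0835).

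**Figure D3:**
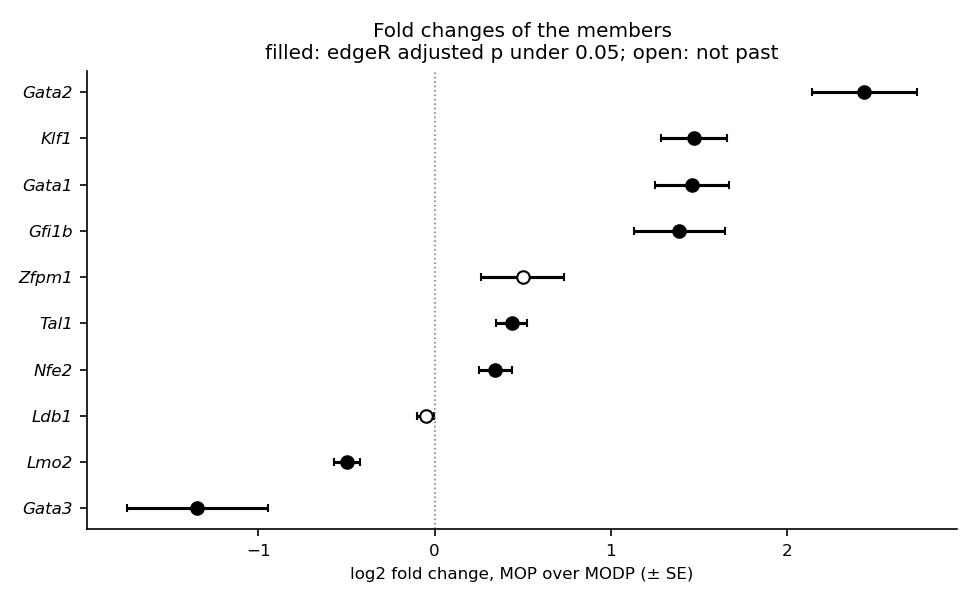
Log2 fold change of MOP over MODP (x axis, ± SE from edgeR) for the 10 members (y axis), with filled points for genes past the threshold and open points for Zfpm1 and Ldb1. Gata2 lies farthest to the right at 2.44 and Gata3 farthest to the left at -1.35.

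Other partners and cofactors moved in both directions. Of 32 tested genes 8 rose, 7 fell and 17 missed the threshold, with a median log2 fold change of 0.05. Past the threshold were 46.9%, against 31.2% of all tested genes. Without MODP replicate 3 the counts of higher and lower genes were 3 and 4. Without MOP replicate 1 or MOP replicate 2 they were 4 and 4. Mafg, the gene of a small MAF protein that pairs with NFE2, rose from 81.4 to 89.7 CPM in MODP to 114 to 128 CPM in MOP. Cbfa2t3, the gene of the corepressor ETO2 of the TAL1 complex, and Runx1, a stem cell and megakaryocyte factor gene, rose by log2 0.69 and 0.48. Erg, an ETS factor gene of stem cells, fell from 59.4 to 72.4 CPM to 19.1 to 28.8 CPM. Gfi1, the paralog of Gfi1b known from granulocyte progenitors, fell by 1.26 ± 0.19 (SE) on the log2 scale, opposite to Gfi1b. Tcf4, the gene of an E protein that can pair with TAL1, and Kdm1a, the gene of the histone demethylase recruited by GFI1 and GFI1B, fell by 0.58 and 0.27.

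Among factors known to oppose GATA1, Spi1, the PU.1 gene, rose from 234 to 245 CPM in MODP to 297 to 307 CPM in MOP (log2 0.34 ± 0.05 SE, edgeR adjusted p = 0.00174). Of the 5 genes on this list 2 were higher in MOP, Spi1 and Ikzf1, and 3 missed the threshold, while 4 were higher under the replicate block. In the main fit 40% were thus past the threshold, against 31.2% of all tested genes. Without MOP replicate 1 the Ikzf1 call was lost (edgeR adjusted p = 0.0580). Spi1 and Gata1 were both higher in MOP.

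Eosinophils are another known site of Gata1. Of 9 tested eosinophil markers 1, the chemokine receptor gene Ccr3, rose and 1, the lectin gene Siglecf, fell, with log2 fold changes of 1.76 and -0.64. So 22.2% were past the threshold, against 31.2% of all tested genes. Under the replicate block 2 rose and 2 fell. Epx, the eosinophil peroxidase gene, lay at 35.5 to 74.4 CPM in the MODP libraries and 45.2 to 97.0 CPM in the MOP libraries and missed the threshold (edgeR adjusted p = 0.657), but it was past it with the replicate block (log2 0.29 ± 0.07 SE, edgeR adjusted p = 0.00952), MOP being higher within each replicate number. The summed CPM of these markers overlapped between the groups, at 190.2 to 391 in MODP, and 212 to 442 in MOP.

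To compare members with each other, CPM were divided by the length of the gene's exons in kilobases. In MODP, Lmo2 was highest at 96.4 ± 6.99 CPM per kilobase (SD, n = 3), followed by Nfe2 at 46.4 ± 5.12 and Ldb1 at 32.3 ± 0.291. Gata2, Tal1, Zfpm1, Klf1, Gfi1b and Gata1 followed at 12.4, 10.2, 9.56, 7.09, 5.60 and 4.74 CPM per kilobase, each overlapping the next over the 3 libraries. Gata3 was lowest at 0.487. Within every MODP library, Zfpm1 lay above Klf1, Klf1 above Gfi1b and Gfi1b above Gata1. In MOP the order at the top changed. Gata2 reached 67.1 ± 16.8 CPM per kilobase (SD, n = 3) and overlapped Lmo2 at 68.4 ± 4.65 and Nfe2 at 58.9 ± 5.29. Ldb1 was at 31.2, Klf1, Gfi1b, Tal1, Zfpm1 and Gata1 lay between 19.5 and 13.0, overlapping their neighbours, and Gata3 was at 0.187. With the length of the longest transcript in place of all exons, Gata2 came first in MOP, then Nfe2 and Lmo2. By that length Gata1 also moved from rank 9 to rank 6 in MOP, and changed places with Gfi1b in MODP.

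**Figure D4:**
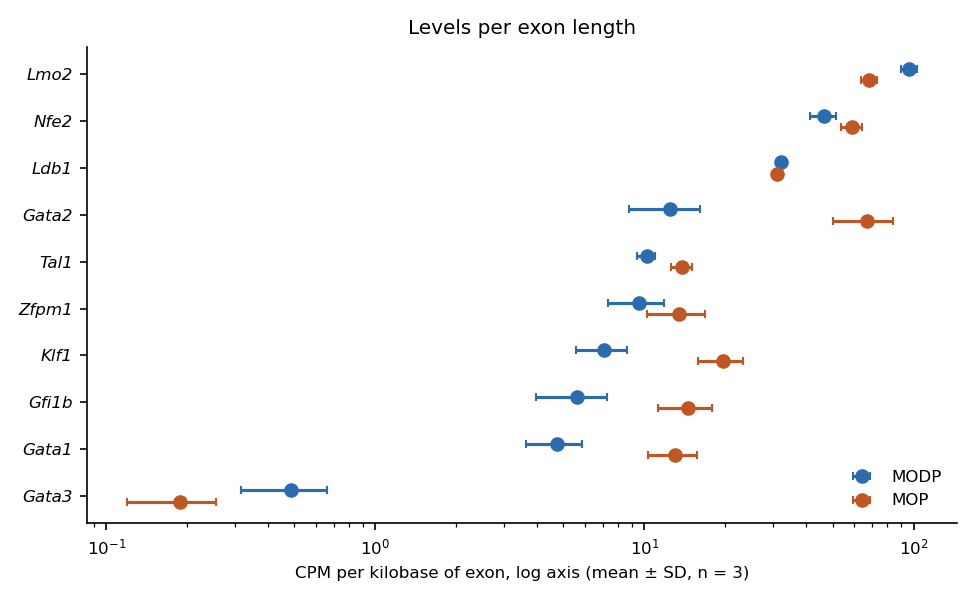
Level of each member per exon length (x axis, log scale, CPM per kilobase, mean ± SD of 3 libraries) in MODP and MOP. Gata2 moves from 12.4 to 67.1 CPM per kilobase and so from below Ldb1 to the range of Lmo2 and Nfe2.

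The genes whose log2 CPM (0.5 CPM added) followed each GATA gene most closely over the 6 libraries were taken by Pearson correlation, among 9184 or 9185 tested genes with a symbol and a mean of at least 10 CPM in the higher group. For Gata1 they were Cldn13, Car1 and Lmna (r = 0.999, 0.999 and 0.998). Car1, a carbonic anhydrase gene of erythroid progenitors, lay at 29.54 to 49.97 CPM in the MODP libraries and 114 to 185 CPM in the MOP libraries. For Gata2 they were Cyp11a1, Il1rl1 and Acss2 (r = 0.999, 0.998 and 0.998). Both Cyp11a1 and Il1rl1 also count among the markers of basophils and mast cells summed above, and Cldn13 and Car1 among the erythroid genes. Cyp11a1, the gene of a steroid synthesis enzyme, lay at 4.35 to 10.7 CPM in the MODP libraries and 57.7 to 104 CPM in the MOP libraries. For Gata3 they were Eif3m, AW112010 and Ogfrl1 (r = 0.999, 0.996 and 0.994), with Gata3 itself resting on 6 to 29 counts a library. Values of at least 0.95 were reached by 408, 772 and 132 genes for Gata1, Gata2 and Gata3. Cldn13, Lmna, Cyp11a1 and Il1rl1 reached the 10 CPM limit through MOP only, with MODP means of 7.35, 8.43, 6.88 and 8.59 CPM. AW112010 reached it through MODP only, with a MOP mean of 7.44 CPM. The correlations include the difference between the groups and share libraries and depth, so they describe these 6 libraries. Within groups, r was 0.994, 0.991 and 0.984 for the 3 Gata1 genes in the order given. It was 0.978, 0.977 and 0.968 for the Gata2 genes and 0.9999, 0.992 and 0.984 for the Gata3 genes.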

How the data were processed

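The authors deposited raw read counts per Ensembl gene for 6 libraries, without normalization, as the whole-number values show. Per the labels' protocols, RNA was extracted with TriZol and libraries made with a TruSeq RNA kit. Per the submitters' processing notes, TopHat 1.4 and HTSeq were used. Genome build, annotation and strand setting of the counting: not given in the sources used here. Groups follow the cell type label. Column names number the replicates 1, 2 and 3, whereas the titles of the third pair repeat number 1, and columns were matched to samples by the leading number and the ending of the title.

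Symbols and exon lengths came from GENCODE M21, which named 20840 of 22271 identifiers. Counts were tested with edgeR 4.0.16 in R 4.3.3 (TMM scaling, filterByExpr, robust quasi-likelihood fit, group as the sole factor), adjusting by Benjamini-Hochberg over 12850 genes. Alternatives used DESeq2 1.42.0, limma-voom (limma 3.58.1), other scalings and filters, replicate blocks and fits without libraries. On simulated counts for the 12850 genes of this comparison, with 50 genes changed at each fold, 48% were recovered at 1.5-fold, 74% at 2-fold, 92% at 4-fold and 98% at 8-fold, and 12 of 168 calls were false. The simulation changed 200 genes, whereas 31.2% of all tested genes were past the threshold in the data. It also drew each library independently, so its rates may differ from those of these data. One read is worth 0.0639 to 0.0939 CPM, depending on the library.

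Libraries of the same column number deviated together from their group means (correlations of 0.58, 0.60 and 0.51 over 9415 genes, against -0.46 to 0.06 otherwise). Deviations were taken within each group, so positive correlations for matching numbers push the others toward negative values. The numbers were used as a block in an alternative fit, while the main calls come from the fit with group alone. No libraries of 1 group had the same counts within sampling noise (chi-square per degree of freedom 7.88 to 37.6).

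Members, gene lists and tests were chosen with earlier results of these data known. The rule named up to 4 partner or opposing genes with the smallest adjusted p in each direction, up to 3 genes past the threshold of each other list, the 3 genes most like each GATA gene, the sort markers and fixed defining markers. Epor, Mmrn1, Slc25a37, Ikzf1, Plek, Col1a1, Sparc, Col3a1, Kdr, Lepr and the genes given as not tested were chosen after their values were seen. So were Thbs1, Il4, Cd3g, Ncr1 and Rora. For 31-mers, a gene's transcript was compared with the transcripts of other genes. Motifs upstream of start sites were exact matches. A few listed genes enter the counts but are not reported here by name.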

Additional observations from a re-analysis of the deposited data

How the results depend on the processing

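Over 160 refits of the 10 members (16 alternatives each), 143 kept the direction and the side of the threshold, and 0 reversed. The other refits concern Gata2, Gata3, Zfpm1 and Nfe2, given above. Higher members numbered 5 to 6 in the fits without a single library. Lower members numbered 1 in each of these fits, with DESeq2 and without both replicate 2 libraries. A replicate block by column number gave 6 higher and 2 lower members, and a block by title number gave 7 and 2. Among members the column number block changed the calls of Gata2 and Zfpm1 only, and the Gata2 to Gata1 difference under it was 1.01.

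Over all genes, fits without a single library gave 1281 to 2524 higher and 1036 to 2275 lower genes, and the block gave 2724 and 2544. In the fits without a single library, partners numbered 3 to 6 higher and 4 to 10 lower, opposing genes 1 to 3 higher, erythroid genes 5 to 16 higher and 1 to 2 lower, megakaryocyte genes 3 to 6 higher and 1 to 3 lower, lymphoid markers 0 to 1 higher and 8 to 13 lower, and the Gata2 to Gata1 difference was 0.76 to 1.37. Opposing genes numbered 4 higher with DESeq2, with the block and without both replicate 2 libraries. Erythroid genes numbered 7 higher without a filter on low counts. Megakaryocyte genes numbered 4 lower under upper-quartile scaling, with no scaling factor and under both blocks. The Gata2 to Gata1 difference was 1.46 without both replicate 2 libraries. Without those libraries Hba-a2 was at log2 1.03 and Thy1 at 0.82, against -0.02 and -0.19 with them, and 2 lymphoid markers were higher. Hba-a2 and Thy1 were past the threshold without those libraries (edgeR adjusted p = 0.0310 and 0.0257) and missed it with them. Of the 31-mers of Hba-a2, 91.0% occur in other genes. Thy1 was at 0.71 without MODP replicate 2 and -0.56 without MODP replicate 3. The cause of these shifts was not tested. Depth limits Gata3 most, at 6 to 29 counts a library.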
